A study of Homo sapiens with 12 samples.

Results

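The serum response with KAP1 present is the comparison of 3 libraries from DMSO-treated cells given serum for 30 min (DMSO-S30) with 3 from DMSO-treated cells given none (DMSO-S0), 6 of the 12 libraries of the study. The cells were HCT116, a human colon carcinoma line, in a single clone (KAP1_dTAG_CloneD5) in which endogenous KAP1 (gene TRIM28) carries a degron tag at its C-terminus. All 12 libraries share this clone and tag, and none of them comes from cells without the tag. Cells of every group spent 48 h without serum, with DMSO or the degrader dTAG present for the last 8 h, and KAP1 is therefore present in the 6 DMSO libraries and depleted in the other 6. Serum came as serum-containing medium, so serum and the addition of medium cannot be told apart. Total RNA without ribosomal RNA was sequenced, and counts cover whole protein-coding genes including introns. The test covered the 13093 genes that reached 10 counts in 6 or more libraries. Of these, 1524 (11.6%) belong to 52 functional lists. The study's methods call the 3 libraries of a group biological replicates, and the labels do not say whether each came from its own culture.

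Cells without serum leave the cell cycle and keep growth signalling low. When serum returns, its growth factors and lipids act through receptors on the RAS-ERK cascade, and kinases then modify transcription factors that are already bound to DNA. The first genes to respond, the immediate early genes, need no new protein synthesis, encode many transcription factors, and are soon restrained by proteins of the same response. Serum response factor (SRF) is central to it, working with the ERK-regulated ternary complex factors such as ELK1 and with the actin-regulated MRTF cofactors.

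The 6 libraries held 20537682 to 25231408 counts, of which the ERCC spike-ins, RNAs added in equal amount to each RNA sample, took 8.12% to 9.37%. The spike-in share was 9.08% ± 0.329 (SD, n = 3) without serum and 8.43% ± 0.265 (n = 3) with serum (exact permutation test, two-sided, p = 0.1, the smallest that 3 against 3 allows). Levels are given in CPM, counts divided by the size of each library after adjustment by its upper quartile factor. These factors were 1.005 to 1.029 without serum and 0.969 to 0.984 with serum, so CPM do not add up to a common sum. The summed level of 13 colorectal epithelial markers was 1154 to 1207 CPM without serum and 1324 to 1420 with serum. EPCAM, KRT8 and KRT19 carried much of this level, while CEACAM5 and CEACAM6 were at 0. The 9 fibroblast and endothelial markers summed to 16.6 to 18.1 CPM without serum and 82.2 to 88.4 with serum. COL1A1, a collagen gene, made up most of that sum and rose (log2 2.48 ± 0.09 SE, adjusted p = 3.08e-18), whereas DCN and LUM, which define fibroblasts, were at 0. The 6 leukocyte markers summed to 1.33 to 1.42 and 1.06 to 2.29 CPM, with MS4A1 at 0. TRIM28 (ENSG00000130726.11, chromosome 19, 58544091 to 58550722, plus strand) stood at 99.1, 91.5 and 100.2 CPM without serum and 120.4, 109 and 115 with serum (log2 0.25 ± 0.07 SE, adjusted p = 0.00722). This call was lost without DMSO-S30 replicate 1 (adjusted p = 0.0526). Its transcript does not measure the protein that dTAG removes. In bulk RNA, a change in RNA per cell and a change in the number of cells that express a gene cannot be told apart.

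Within 30 min of serum, 3439 genes (26.3% of those tested) changed, 1202 of them upward (9.18%) and 2237 downward (17.1%), by edgeR's quasi-likelihood test at a Benjamini-Hochberg adjusted p under 0.05. The large changes were mostly rises. At least 1.5-fold, 512 genes rose (3.91%) and 232 fell (1.77%), and at least 2-fold, 288 rose (2.2%) and 55 fell. The count of small falls depended on the scaling of the libraries. With TMM scaling 13.5% of genes were called higher and 9.07% lower, and with library sizes set by the ERCC total 8.97% were higher and 4.51% lower. Of 733 falls smaller than 0.25 on the log2 scale, 6.28% were also called lower under TMM, against 90.9% of the 55 falls of at least 2-fold and 99.7% of the 288 rises of that size. Counts under these scalings are given, higher first and lower second, beside those of many classes of small changes.

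Across the roles that the lists were grouped into, feedback genes had the highest share of rises, with 33 of 52 higher and 1 lower. Signalling genes had 38 of 110 higher and 11 lower, genes of starvation and stress 42 of 126 higher and 11 lower, and genes of cell shape and surface 79 of 339 higher and 36 lower. Transcription factors had 59 of 440 higher and 90 lower, and 345 of the 440 are zinc finger genes. Cell cycle genes had 2 of 92 higher and 28 lower. The replication-dependent histone genes, 41 of the 92, held 21 of these falls and 1 of the rises. Among the 52 lists, 41 had a share of rises above the 9.18% of all genes and 7 a share of falls above the 17.1% of all genes. These are counts without a test of the lists.

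**Figure D1:**
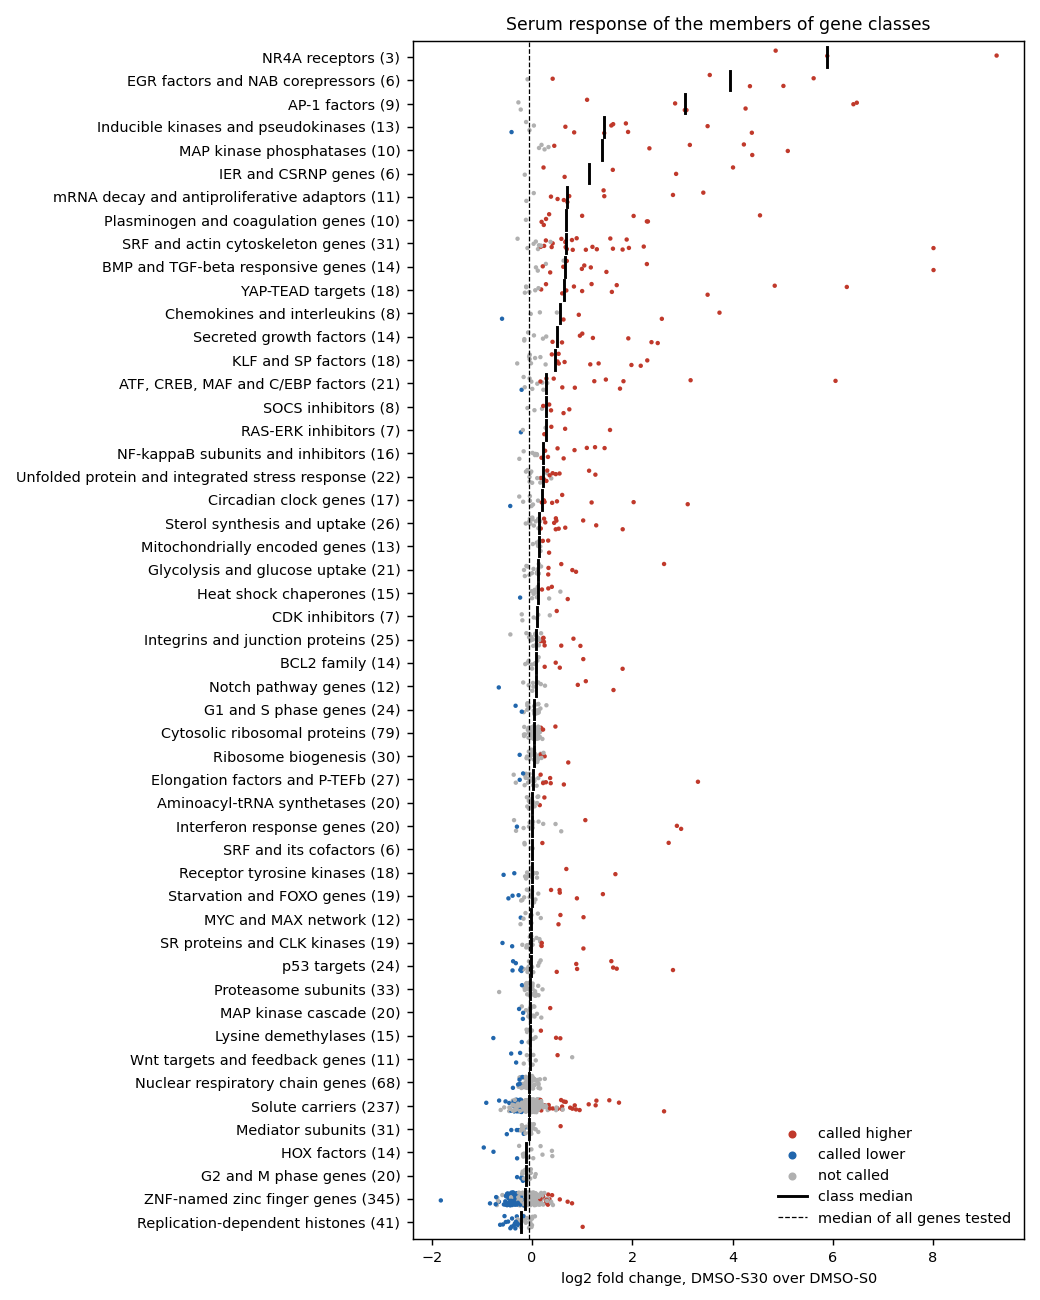
Log2 fold change with serum (DMSO-S30 against DMSO-S0) of the tested members of gene classes, with called members coloured, the median of each class as a bar and that of all genes as a dashed line. The values near 8 belong to ACTG2 and TGFBI, which were at the floor without serum and whose fitted values depend on the prior count. The AP-1, EGR and NR4A factors and the MAP kinase phosphatases lie far to the right of the median of all genes, and the medians of histone and zinc finger genes lie to its left (that of zinc finger genes also with TMM and ERCC scaling, at -0.06).

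The NR4A, EGR and AP-1 transcription factors had the highest medians of the lists. All 3 NR4A orphan nuclear receptors rose (median log2 5.89), as did 7 of 9 AP-1 subunits (median 3.05), 5 of 6 EGR and NAB genes (median 3.95), 10 of 18 KLF and SP factors (median 0.45), 11 of 21 ATF, CREB, MAF and CEBP factors (median 0.29) and 5 of 6 IER and CSRNP genes (median 1.13). NR4A3 stood at 1.17, 1.24 and 1.28 CPM without serum and 726, 736 and 835 with serum (log2 9.27 ± 0.14 SE, adjusted p = 2.24e-26). NR4A1 stood at 11.3, 12.2 and 11.5 and 676, 688 and 729 CPM (log2 5.89 ± 0.08 SE, adjusted p = 4.73e-27). FOS, which pairs with JUN proteins to form AP-1, stood at 6.41, 5.18 and 4.86 and 536, 456 and 464 CPM (log2 6.48 ± 0.10 SE, adjusted p = 1.07e-26). In each of these genes the lowest library with serum lay above the highest without it. FOSB (log2 6.41), JUN (4.26), JUNB (3.08), FOSL1 (3.05) and FOSL2 (2.85) rose with FOS, and JUND, the subunit most abundant in resting cells, rose less (1.10). BATF2 and BATF3, AP-1 partners of immune cells, had values of -0.23 and -0.27 that did not pass the test.

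ATF3, a stress-inducible bZIP repressor, stood at 16.4, 14.4 and 16.1 CPM without serum and 1025, 991 and 1109 with serum (log2 6.06 ± 0.09 SE, adjusted p = 6.03e-27). Its relatives MAFF (3.16), CREM (1.82) and CEBPD (1.75) also rose, and ATF2, a constitutive factor that kinases activate, fell by 0.21 on the log2 scale, a call lost under TMM and ERCC scaling. EGR1 (ENSG00000120738.7, chromosome 5, 138465490 to 138469315, plus strand), a zinc finger factor under direct control of SRF, stood at 56.7, 50.4 and 57.5 and 679, 591 and 628 CPM (log2 3.55 ± 0.08 SE, adjusted p = 3.34e-22). EGR3 (5.62) and EGR2 (5.02) rose more on the log2 scale. EGR4 also rose (4.35 ± 0.66 SE), but it had at most 4 counts in any library without serum, so the size of its rise is uncertain. NAB2, which represses EGR proteins, rose by 0.41, and NAB1 had a value of -0.09 that did not pass. KLF2 (2.30), KLF6 (2.17), KLF4 (1.98) and KLF5 (1.33) led the KLF factors, whereas SP1, a general factor of GC-rich promoters, had a value of -0.02. The immediate early genes CSRNP1 (4.01), IER2 (2.87) and IER3 (1.61) rose with them.

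Among SRF and its 5 cofactors 2 genes rose. SRF itself rose (log2 2.73 ± 0.08 SE, adjusted p = 9.25e-21), ELK1 rose by 0.20, a call lost with ERCC library sizes, and the cofactors MRTFA and MRTFB had values of -0.15 and -0.15 that did not pass. In the MYC and MAX network, 3 of 12 genes rose and 1 fell (4 and 0 with TMM, 3 and 0 with ERCC library sizes). MNT, a MYC antagonist, rose by 1.03, MYC by 0.57 and MXD1 by 0.53. MAX, the partner that the proteins of the network share, fell by 0.23, a call lost under TMM and ERCC scaling.

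Promoters of the induced genes were compared with those of all genes, using RefSeq windows of 300 bases, from 250 before to 50 after a gene start (GRCh38.p14), which 10413 of the 13093 tested genes had. The CArG box, the element that SRF binds, stood in 10.7% of the 75 windows of genes raised at least 4-fold, in 7.08% of the 226 of genes raised at least 2-fold, in 1.15% of all windows and in 0 of 155 windows of genes lowered at least 1.5-fold. The cAMP response element TGACGTCA, which CREB and ATF proteins bind, stood in 12%, 10.2%, 3.17% and 0% of the same 4 sets. The TATA motif TATAAA stood in 25.3%, 18.6%, 5.9% and 5.81%. The AP-1 motif TGANTCA differed less, at 10.7%, 6.64%, 4.44% and 3.87%. The E-box CACGTG (13.3%, 8.85%, 9.83% and 11.6%), the GC box GGGCGG (65.3%, 72.6%, 70.3% and 73.5%) and the NF-kappaB motif (21.3%, 16.8%, 14.7% and 14.2%) stood at similar shares in most sets. Both strands were searched, and none of the windows of genes raised 2-fold had a TATA motif lying inside a CArG box. A match of letters is a description of the window and not evidence of binding.

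**Figure D2:**
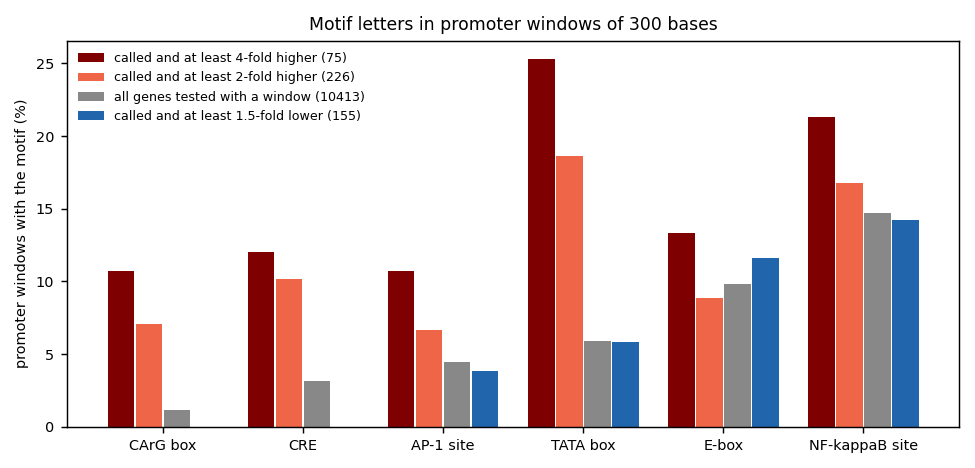
Share of promoter windows, in percent, that hold each motif, for genes raised at least 4-fold, genes raised at least 2-fold, all tested genes and genes lowered at least 1.5-fold. Every motif shown stands at its highest share in genes raised at least 4-fold. The GC box, which is not shown, stands at its lowest share in these genes (65.3%, beside 70.3% of all windows). The CArG, cAMP response and TATA motifs stand there at 10.7%, 12% and 25.3%, beside 1.15%, 3.17% and 5.9% of all windows.

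Stretches with a CArG box from genes of different roles are shown to let the boxes be compared, each with up to 20 bases on either side, 5′ to 3′ on the strand of the gene, with the boxes in capitals. They are chr5:138465354-138465425 (EGR1, plus strand), chr6:43171219-43171268 (SRF, plus strand), chr2:105438585-105438634 (FHL2, minus strand), chr19:16067345-16067394 (TPM4, plus strand), chr2:150487738-150487787 (RND3, minus strand) and chr19:1026499-1026548 (CNN2, plus strand).
EGR1: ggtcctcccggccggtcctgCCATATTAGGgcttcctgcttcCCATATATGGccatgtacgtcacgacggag
SRF: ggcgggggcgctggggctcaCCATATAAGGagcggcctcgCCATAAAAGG
FHL2: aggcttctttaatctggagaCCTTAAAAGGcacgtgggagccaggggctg
TPM4: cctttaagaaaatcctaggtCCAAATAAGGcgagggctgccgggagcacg
RND3: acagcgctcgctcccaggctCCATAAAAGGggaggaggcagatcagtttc
CNN2: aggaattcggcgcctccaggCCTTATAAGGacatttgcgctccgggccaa
EGR1 and SRF each hold a pair of boxes, and the SRF boxes begin 30 and 10 bases before the gene start. The next stretches hold the cAMP response element, in capitals, from chr5:172771293-172771340 (DUSP1, minus strand), chr22:38201920-38201967 (MAFF, plus strand), chr11:1572318-1572409 (DUSP8, minus strand) and chr4:74445051-74445098 (AREG, plus strand).
DUSP1: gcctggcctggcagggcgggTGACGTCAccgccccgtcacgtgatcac
MAFF: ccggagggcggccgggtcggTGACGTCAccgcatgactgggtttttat
DUSP8: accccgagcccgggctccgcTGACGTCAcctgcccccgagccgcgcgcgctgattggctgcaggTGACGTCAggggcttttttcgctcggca
AREG: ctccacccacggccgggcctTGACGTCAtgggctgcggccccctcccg
The first 2 belong to a MAP kinase phosphatase and a bZIP repressor, and the last to a secreted ligand of the EGF receptor, so the same letters stand before genes of different roles.

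Genes that restrain the response rose together with its drivers. Of 10 MAP kinase phosphatases, which switch off ERK, p38 and JNK, 6 rose and none fell (median log2 1.39). DUSP5, specific for nuclear ERK, stood at 118, 114 and 118 CPM without serum and 2164, 2128 and 2261 with serum (log2 4.23 ± 0.07 SE, adjusted p = 1.04e-25). DUSP2 rose by 5.10, DUSP1 by 4.39, DUSP8 by 3.15 and DUSP4 by 2.34, while DUSP6, the cytoplasmic ERK phosphatase, rose by only 0.44. Of 7 other inhibitors of RAS-ERK signalling 4 rose, among them ERRFI1, which blocks the EGF receptor (1.55), SPRY2 (0.66) and SPRY4 (0.38), and SPRED1 fell by 0.22, a call lost under TMM and ERCC scaling. Factors of mRNA decay and related antiproliferative adaptors rose in 9 of 11 cases (median 0.70), led by ZFP36, which binds AU-rich elements (log2 3.42), BTG2 (2.81), ZC3H12A (1.44) and TOB1 (1.43). In the NF-kappaB list 9 of 16 genes rose and none fell, led by BCL3 (1.45), REL (1.26), RELB (1.09) and NFKBIZ (0.85). The inhibitor NFKBIA, a common early target of NF-kappaB, had a value of 0.10 that did not pass. Of 8 SOCS genes, which restrain cytokine receptors, 5 rose, including SOCS3 (0.74) and SOCS1 (0.63). The SOCS1 call was lost without DMSO-S0 replicate 2 or 3 or DMSO-S30 replicate 1 or 3 (adjusted p 0.0509 to 0.0867).

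The core cascade showed few changes beside its inducible branches. Of 20 genes of the MAP kinase cascade, 1 rose and 3 fell (3 and 1 with TMM, 1 and 0 with ERCC library sizes). SHC1, an adaptor, rose by 0.36, whereas MKNK1, SOS1 and SOS2 fell by 0.26, 0.18 and 0.18, calls that SOS1 and SOS2 lost under TMM and all of them with ERCC library sizes. Of 18 receptor tyrosine kinases 2 rose, EPHA2 (1.66) and AXL (0.68), and 2 fell, EPHB3 (-0.57) and RET (-0.36), the last not called under TMM or ERCC scaling. EGFR had a value of 0.10 that did not pass. Inducible kinases and pseudokinases rose in 9 of 13 cases (median 1.44). SIK1, a kinase that acts on CREB coactivators, rose by 4.39, NUAK2 by 3.50, MAP3K8 by 1.92 and MAP3K14 by 1.87, and TRIB2 fell by 0.41.

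Secreted signals were often higher as well. Growth factors rose in 8 of 14 cases and none fell (median 0.50). AREG, a ligand of the EGF receptor, stood at 261, 260.3 and 261 CPM without serum and 1417, 1446 and 1569.7 with serum (log2 2.51 ± 0.07 SE, adjusted p = 3.01e-21). GDF15 (2.38), HBEGF (1.92) and LIF (1.21) also rose. Among 8 chemokines and interleukins, CXCL8 (3.74), CXCL2 (2.59), CXCL1 (0.93) and IL18 (0.63) rose, and CSF1, a macrophage growth factor, had a value of -0.60. The CSF1 call was lost on leaving out any 1 of the 6 libraries (adjusted p 0.0574 to 0.235), and that of CXCL1 without DMSO-S0 replicate 2 or 3 or DMSO-S30 replicate 1 or 2 (0.059 to 0.0984). Genes that respond to BMP and TGF-beta rose in 10 of 14 cases (median 0.66), with PMEPA1 (1.48) and ID2 (1.17) among them. TGFBI had at most 1 count in any library without serum and rose at least 65.7-fold, taking 3 counts per library as the floor. In the Notch list HES4 (1.62), JAG1 (1.07) and HES1 (0.91) rose and DLL1 fell by 0.66. The Wnt list had 1 of 11 higher and 3 lower (1 and 2 under both other scalings). RNF43 and ZNRF3, which remove Wnt receptors, fell by 0.42 and 0.24, and AXIN2, a feedback scaffold, stood at 108, 105 and 109 CPM without serum and 88.2, 82.1 and 86.8 with serum (log2 -0.32 ± 0.07 SE, adjusted p = 0.000866). ZNRF3 was not called under TMM or ERCC scaling.

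**Figure D3:**
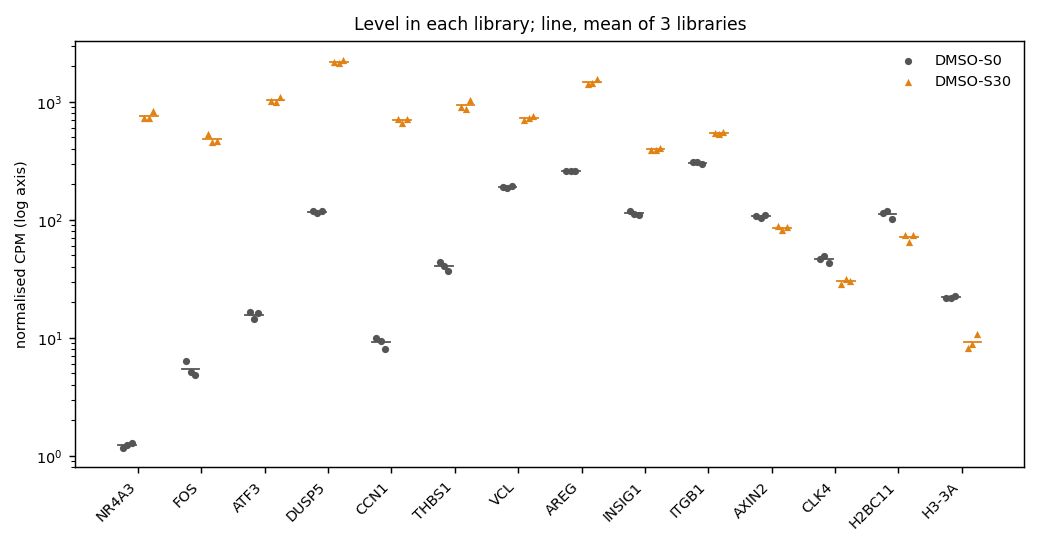
Level in CPM, on a log axis, of 14 genes in each of the 3 DMSO-S0 and 3 DMSO-S30 libraries. The libraries with serum lie above those without in NR4A3, FOS, ATF3, DUSP5, CCN1, THBS1, VCL, AREG, INSIG1 and ITGB1, and below in AXIN2, CLK4, H2BC11 and H3-3A.

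Genes of the actin cytoskeleton and its SRF-dependent programme rose more often than not. Of 31 such genes 23 rose and none fell (median log2 0.67, 26 and 0 with TMM, 24 and 0 with ERCC library sizes). VCL, which links integrins to actin, stood at 188, 187 and 194 CPM without serum and 696, 724 and 756 with serum (log2 1.93 ± 0.07 SE, adjusted p = 1.71e-17). MYL9 (2.23), FHL2 (1.89), TAGLN (1.81), ZYX (1.61) and TPM4 (1.56) rose with it. The abundant actins ACTB and ACTG1, whose sequences are close and whose reads could be split between them, rose by 0.69 and 0.67. A CArG box stood in the window of 6 of the 20 raised genes of this list that had one (30.0%) and in 0 of 7 that were not called. The list was drawn up around SRF and chosen with earlier results of these data known. These counts are therefore a description and were not tested.

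Targets of YAP and TEAD, factors that respond to cell tension and to serum lipids, rose in 12 of 18 cases (median 0.64). CCN1 stood at 9.96, 9.45 and 8.09 CPM without serum and 715, 665 and 719 with serum (log2 6.28 ± 0.09 SE, adjusted p = 1.8e-27), and CCN2 rose by 4.84. Both encode matricellular proteins that bind integrins. Of 25 integrins and junction proteins 8 rose and none fell, with ITGB1 at 309.6, 309 and 297 CPM without serum and 541, 538 and 555 with serum (log2 0.83 ± 0.06 SE, adjusted p = 4.52e-11), ITGA5 at 0.96 and ITGA6 at 0.58 on the log2 scale. In the list of plasminogen and coagulation genes 9 of 10 rose (median 0.67). THBS1 stood at 43.7, 40.3 and 37.2 and 903, 867 and 1032 CPM (log2 4.55 ± 0.10 SE, adjusted p = 2.05e-23), and the protease PLAU rose by 2.31 and its receptor PLAUR by 2.03.

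Of the 237 solute carriers 24 were higher (10.1%) and 36 lower (15.2%), close to the 9.18% and 17.1% of all genes. With TMM 38 were higher and 20 lower, and with ERCC library sizes 25 and 6. Single carriers rose several-fold. The glucose carrier SLC2A3 rose by 2.63 and the mitochondrial carrier SLC25A25 by 1.73, while SLC10A3 and SLC16A6 rose by 1.54 and 1.28.

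Genes of starvation and stress were called higher in 33.3% of cases and lower in 8.73%, beside 9.18% and 17.1% of all genes. Directions were mixed in the FOXO and p53 lists. In the starvation and FOXO list 5 of 19 rose (6 with TMM, 5 with ERCC library sizes), led by BCL6 (1.41) and CITED2 (0.89), and 3 fell (3 and 2), including PIK3IP1, an inhibitor of PI3 kinase (-0.47), and SESN1, an inhibitor of mTORC1 (-0.39). Circadian clock genes rose in 9 of 17 cases. BHLHE40 (3.11), PER1 (2.03) and NFIL3 (1.19) rose, and DBP, which NFIL3 opposes at shared sites, fell by 0.44. Targets of p53 split into 7 higher and 6 lower of 24 (9 and 3 with TMM, 7 and 2 with ERCC library sizes), with the kinases PLK3 (1.62) and PLK2 (1.58) rising and PHLDA3 falling by 0.38, a call lost with ERCC library sizes. In the BCL2 family the opposed members PMAIP1, which promotes death (1.81), and MCL1, which prevents it (1.02), both rose. Genes of the unfolded protein and integrated stress responses rose in 10 of 22 cases and none fell, led by HERPUD1 (1.26) and PPP1R15A (1.14). Of 15 heat shock genes 4 rose, with HSPB1 at 0.71, and HSF2, a heat shock factor, fell by 0.24. Of 20 interferon response genes 3 rose, ISG15 (2.97), OASL (2.89) and ISG20 (1.06), and IRF2 fell by 0.30. The calls of HSF2 and IRF2 were lost under TMM and ERCC scaling.

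Within metabolism, sterol genes had the highest share of rises, except under TMM and ERCC scaling, where that of mitochondrially encoded genes was higher. Of 26 genes of sterol synthesis and uptake 12 rose and none fell (15 and 0 with TMM, 12 and 0 with ERCC library sizes). INSIG1, which holds the sterol sensor in the endoplasmic reticulum, stood at 119.8, 111 and 110.2 CPM without serum and 390.4, 391 and 411 with serum (log2 1.81 ± 0.06 SE, adjusted p = 3.03e-18). IDI1, an enzyme of isoprenoid synthesis, also rose (0.66). Of 21 genes of glycolysis and glucose uptake 6 rose, led by the glucose carrier SLC2A3 given above (2.63). The carriers SLC2A1 (0.88) and SLC16A3 (0.80) and the gene PFKFB3 (0.58) rose less. The machinery of protein synthesis moved little. Of 79 ribosomal protein genes 4 rose (17 with TMM, 3 with ERCC library sizes), of 30 ribosome biogenesis genes 3 rose and 1 fell (8 and 0 with TMM, 5 and 0 with ERCC library sizes), with RRP12 at 0.72, and of 20 aminoacyl-tRNA synthetases 2 rose (5 with TMM, 2 with ERCC library sizes). Ribosomal protein genes have many near-identical pseudogenes, so their counts are uncertain. Of 68 nuclear respiratory chain genes none rose and 7 fell, but 3 rose and 2 fell with TMM and 1 rose and 1 fell with ERCC library sizes, while 3 of the 13 genes of the mitochondrial genome rose (10 with TMM and with ERCC library sizes). The proteasome had 1 of 33 genes lower and none higher (1 higher and none lower with TMM, none either way with ERCC library sizes).

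Few genes of the cell cycle were called higher at this time. Of 24 genes of the G1/S programme none rose and 2 fell (6 rose and 1 fell with TMM, none either way with ERCC library sizes), and of 20 genes of G2/M none rose and 5 fell (0 and 1 with TMM, none with ERCC library sizes), among them AURKA (-0.30). CCND1, the cyclin that growth factors induce, had a value of 0.17 that did not pass, and its relative CCND3 fell by 0.33, a call lost with ERCC library sizes. Of 7 CDK inhibitors CDKN1A rose (0.49). Replication-dependent histone genes had the highest share of falls among these lists, with 21 of 41 lower and 1 higher (16 and 0 with TMM, 12 and 0 with ERCC library sizes). H2BC11 stood at 114, 119.6 and 102 CPM without serum and 74.3, 65.4 and 74.8 with serum (log2 -0.64 ± 0.07 SE, adjusted p = 5.44e-08), and H2AC4 (-0.58) and H3C12 (-0.55) fell as well. H1-5, the gene called higher (1.01), was not called under TMM or ERCC scaling. Histone genes are near-identical copies, and how reads matching several copies were counted is not given in the sources used here.

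Genes that make and process RNA had calls in both directions. Of 27 elongation genes 7 rose and 2 fell (9 and 1 with TMM, 6 and 0 with ERCC library sizes), with ELL2, a subunit of the super elongation complex, rising by 3.31. CCNT1, a cyclin of P-TEFb, and HEXIM1, its inhibitor, rose by 0.37 and 0.36, and PAF1 by 0.63. Of 31 Mediator subunits 1 rose and 7 fell (2 and 3 with TMM, 1 and 2 with ERCC library sizes). Their 22.6% lower stands beside 17.1% of all genes. The rise was MED29 (0.57), and the largest falls were MED22 (-0.50) and MED31 (-0.42). Among SR proteins and their kinases, CLK4 stood at 46.7, 49.2 and 43.3 CPM without serum and 28.8, 31.7 and 30.4 with serum (log2 -0.59 ± 0.08 SE, adjusted p = 1.17e-06), CLK1 fell by 0.40, and CCNL1, a cyclin linked to splicing, rose by 1.02. Among lysine demethylases KDM6B rose (0.56) and KDM4D fell by 0.77.

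Zinc finger genes made up most of the falls among transcription factors. Of 345 tested, 13 rose and 85 fell (26 and 57 with TMM, 12 and 27 with ERCC library sizes), with a median of -0.13 beside -0.07 for all genes, and a median of -0.06 for these zinc finger genes under either other scaling. Many of their proteins carry a KRAB domain, through which they recruit KAP1. ZNF514 (-0.84) and ZNF599 (-0.73) fell, and ZNF217 (0.80) and ZNF487 (0.71) rose. ZNF585B had the largest fall (-1.82), but it overlaps ZNF383 and another counted gene. Of 14 HOX genes none rose and 3 fell (1 and 3 with TMM, 1 and 2 with ERCC library sizes). Their 21.4% lower stands beside 17.1% of all genes. The falls were HOXD3 (-0.96), HOXA11 (-0.77) and HOXB3 (-0.30, not called with ERCC library sizes), and HOXD3 and HOXB3 overlap other HOX genes.

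**Figure D4:**
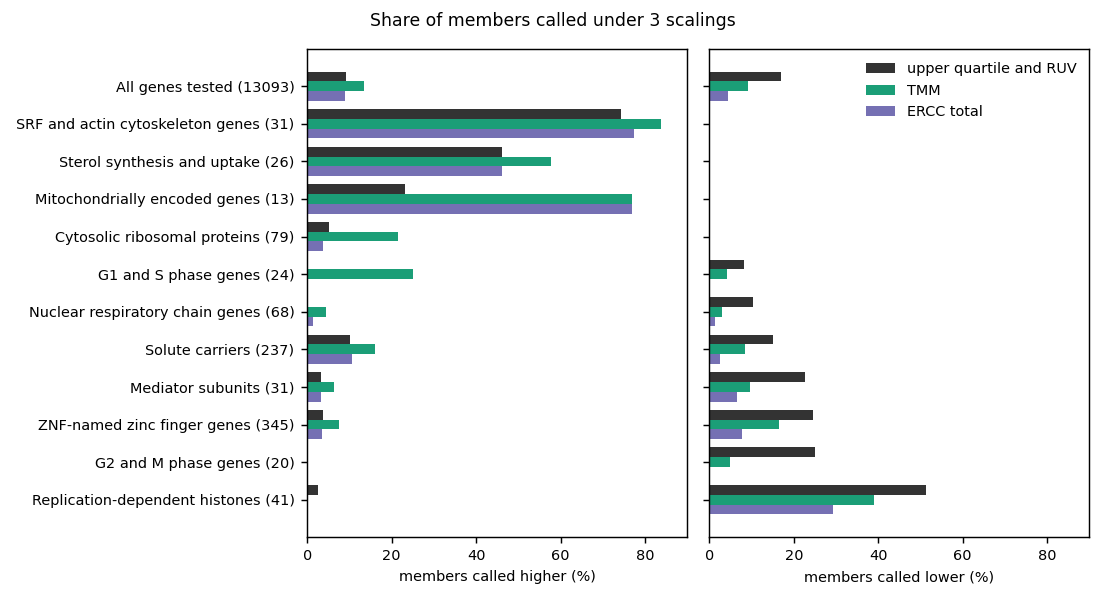
Percent of tested members called higher and lower with serum in 11 classes and in all genes, under the main scaling, TMM scaling and ERCC library sizes. Rises of the sterol class and of the SRF and actin class stay at similar shares. Those of other classes move, as in mitochondrially encoded genes (3, 10 and 10 of 13). The share of all genes called higher is 9.18%, 13.5% and 8.97%, and the share called lower runs from 17.1% to 9.07% and 4.51%.

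The lists held 108 of the 288 genes raised at least 2-fold (37.5%) and 14 of the 232 lowered at least 1.5-fold (6.03%), beside 11.6% of all genes tested. Outside them, the largest rises in genes with a mean of at least 100 counts included ASTL (log2 5.78), EDN1 (4.33), the vasoconstrictor endothelin, PTGS2 (4.14), the inducible cyclooxygenase, AVPI1 (3.54), ARC (3.50), LONRF2 (3.45) and TUFT1 (3.43). The largest falls included H3-3A, a replication-independent histone gene, at 21.6, 21.9 and 22.7 CPM without serum and 8.25, 8.86 and 10.8 with serum (log2 -1.24 ± 0.10 SE, adjusted p = 4.19e-10). RDM1 (-1.17), THBS4 (-1.15), CHD9NB (-1.10) and GVQW3 (-1.07) also fell. ANKUB1 (-1.36), THAP2 (-1.10) and BRF2 (-1.03) fell too, but each overlaps another counted gene, and whether counting used strand is not given in the sources used here.

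Rises and falls differed in the genes that carried them. Of the genes lowered at least 1.5-fold, 55.2% overlapped another counted gene and 51.7% had a mean under 100 counts, beside 34.2% and 16.4% of all genes tested. Of the genes raised at least 2-fold, 19.4% overlapped another and 22.9% had a mean under 100 counts. Among genes that overlap no other, 104 were lowered at least 1.5-fold. Of the genes named above, FOSB, JUNB, MAFF, NAB2, MXD1, SOCS1, SHC1, IL18, VCL, TAGLN, ZYX, THBS1, PLAU, SLC25A25, SLC16A6, SLC16A3, PER1 and PLK3 among the rises also overlap another counted gene. So do MAX, RNF43, AXIN2, DLL1, DBP, MKNK1, MED31, ZNF514 and H3C12 among the falls. Calls of the named genes that depended on 1 library, beside those already given, were lost without DMSO-S0 replicate 1 for MAX, without DMSO-S0 replicate 2 for ELK1, EPHB3, H1-5, ZNF585B, AURKA, SOS2 and HSF2, and without DMSO-S0 replicate 3 for H1-5, DLL1, CCND3, SPRED1, SOS2, RET, ZNRF3, MAX and IRF2. They were lost without DMSO-S30 replicate 1 for ELK1, H1-5, ZNF585B, SPRED1, SOS2, ZNRF3, HSF2 and IRF2, without DMSO-S30 replicate 2 for ELK1, H1-5, SOS1, MAX and IRF2, and without DMSO-S30 replicate 3 for ATF2, SOS2, MAX and HSF2. The part of overlap and of low level in these falls was not tested.

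The direction also moved with gene length. In the fifth of genes with the shortest span (208 to 11533 bases), 12.3% rose and 6.57% fell, with a median log2 of 0.02. In the 3 groups between 15.2%, 20.01% and 23.9% fell, in order of length. In the fifth with the longest span 6.53% rose and 19.8% fell, with a median of -0.11. Under TMM the medians were 0.08 and -0.03. Counts over whole genes include unspliced RNA, and its part in this was not tested.

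**Figure D5:**
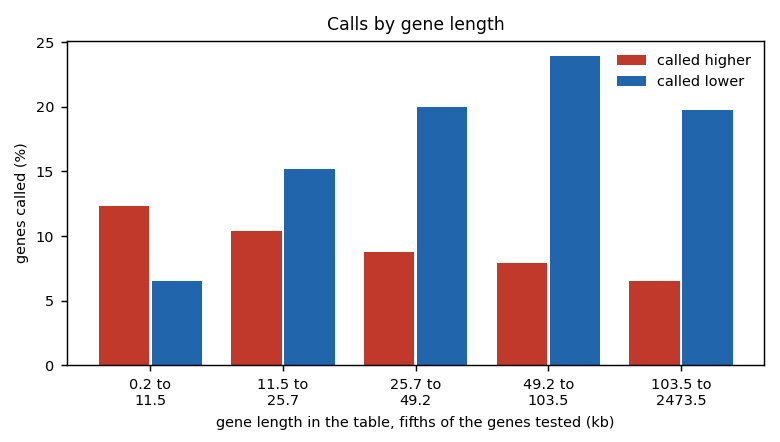
Percent of genes called higher and lower with serum in 5 equal groups by gene length. The share called higher runs from 12.3% in the shortest to 6.53% in the longest group, and the share called lower goes from 6.57% in the shortest to 23.9% in the fourth group and 19.8% in the longest.

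Cells depleted of KAP1 gave a separate set of 6 libraries for the same serum contrast, in which 9.09% of genes were called higher and 15.4% lower. Of the 512 genes raised at least 1.5-fold with KAP1 present, 484 (94.5%) were also called higher after depletion, and of the 232 lowered at least 1.5-fold, 149 (64.2%) were also called lower. The serum effect itself differed between the treatments in 5 genes (0.0382% of those tested), and it was smaller after depletion in each. With KAP1 present, CXCL8, a neutrophil chemokine, stood at 3.39, 2.80 and 2.31 CPM without serum and 37.0, 34.7 and 35.0 with serum, and JUN at 9.70, 9.95 and 9.86 and 185, 173 and 200.4 CPM. For CXCL8 the effect was 3.74 with KAP1 and 1.98 after its depletion, for JUN 4.26 and 3.32, for ATF3 6.06 and 5.36, for INSIG1 1.81 and 1.18 and for ATG12 0.41 and -0.14 on the log2 scale.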

How the data were processed

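The authors trimmed reads (Trim Galore 0.6.4, FastQC 0.11.8 for quality), mapped them to hg38 with STAR, and counted them over whole protein-coding genes and ERCC spike-ins with featureCounts (Subread 1.6.3). They used edgeR 3.40.1 for their own tests. The deposited values are raw counts for 19901 genes and 92 ERCC transcripts in 12 libraries. Strand and multiple-mapping settings are not given in the sources used here, and 0 per-sample columns were left unused.

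Genes with at least 10 counts in 6 libraries (13093) were scaled by the upper quartile and fitted with edgeR 4.0.16 (R 4.3.3) as 4 groups plus 1 RUV factor from 69 ERCC transcripts. The quasi-likelihood F-test with Benjamini-Hochberg adjustment over all genes called changes at 0.05. SE is the log2 fold change divided by the root of F. The spike-ins track RNA input and not RNA per cell. The scripts were tested on simulated data. Replicates differed by more than sampling noise.

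The comparison, the gene lists and their members were chosen with earlier results of these data known, so lists have counts and medians and no test. Named genes are the first 4 called members of a list by absolute log2 fold change, up to 2 in its other direction, the 8 largest rises and 8 largest falls outside lists whose groups do not overlap (mean of at least 100 counts), and TRIM28, FOS, ATF3, NR4A1 and EGR1. Other named genes (among them those that did not pass, and further members beyond the first 4) were chosen after their values were seen. Gene symbols were paired with 19368 of the identifiers. Alternatives were TMM and ERCC scaling, no RUV factor, no count filter, DESeq2 1.42.0, a likelihood ratio test, the 6 DMSO libraries alone, a replicate block and leaving out each library. Some items are not reported here.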

Additional observations from a re-analysis of the deposited data

Results flagged for a closer look

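The serum effect differed between DMSO- and dTAG-treated cells by a test of the difference itself (edgeR's quasi-likelihood test, Benjamini-Hochberg adjusted over 13093 genes) in 4 members of the gene lists. The difference of the log2 effects, dTAG minus DMSO, was -1.76 ± 0.17 (SE) for CXCL8 (adjusted p = 2.62e-06), -0.94 ± 0.12 for JUN (adjusted p = 0.000362), -0.62 ± 0.09 for INSIG1 (adjusted p = 0.000837) and -0.70 ± 0.12 for ATF3 (adjusted p = 0.00604). Each gene rose with serum in both treatments.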

How the results depend on the processing

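Counts of rises stayed within 1.5 times of the main counts under each alternative run, and counts of falls did not. The 2237 genes called lower became 1187 with TMM scaling, 591 with ERCC library sizes, 1220 with DESeq2 and 1442 without DMSO-S30 replicate 1. The 232 lowered at least 1.5-fold became 145 with ERCC library sizes and 147 with DESeq2, and the 55 lowered at least 2-fold became 32 with DESeq2. The total of 3439 became 1766 with ERCC library sizes. In genes overlapping no other counted gene, an alternative chosen after seeing the data, the total was 2250, with 1370 lower, 104 lower at least 1.5-fold and 19 at least 2-fold. Rises made up 35.0% of calls in the main result, 59.8% with TMM, 66.5% with ERCC library sizes and 58.0% with DESeq2. The cause was not tested. Leaving out 1 library gave totals of 2473 to 3705, with 1442 to 2424 lower, and 5 to 7 genes for the difference between treatments, and spike-in share differences of -0.829 to -0.497 percentage points (exact permutation p = 0.2, the smallest possible there).

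Of 220 named genes, 172 kept direction and call under all alternatives, 48 lost the call under at least 1 and 0 reversed, and the median of 21 of 55 lists changed sign under at least 1. Same-numbered replicates of the DMSO groups had correlated deviations of 0.064, 0.051 and 0.059, and differently numbered ones had -0.054 to -0.002. The former lay under the 0.1 taken to show pairing, although each replicate correlated best with its own number. Whether the libraries were paired is not known. A replicate block gave 3513 calls (1229 higher, 2284 lower) and 7 genes for the difference between treatments. At 3 libraries a group and 1 clone, small falls and genes of few counts carry the least weight.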

Other observations

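Several genes were at or under 3 counts in every library without serum and are given as lower bounds against a floor of 3 counts per library. GPR183, a receptor for oxysterols, rose at least 39.0-fold, ASB2 at least 14.4-fold, ACTG2, a smooth muscle actin, at least 10.8-fold, RASD1 at least 9.06-fold and SNAI2, a repressor of epithelial genes, at least 3.83-fold. ATG12, a ubiquitin-like protein of autophagy, differed between treatments in its serum effect (difference -0.54 ± 0.08 SE, adjusted p = 0.0025 by edgeR's quasi-likelihood test). It rose with serum in DMSO-treated cells (log2 0.41 ± 0.06 SE, adjusted p = 6.01e-06) and had a value of -0.14 after KAP1 depletion (adjusted p = 0.0836).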
